A study of Mus musculus with 6 samples.

Results

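Liver was compared with brain over all 6 libraries of the series. The 2 liver libraries were set against 4 brain libraries, 2 of cerebellum and 2 of hippocampus. Every library came from C57BL/6 mice aged 6 months by the sample labels, and each tissue had 1 library of Atxn2 knockout animals (Atxn2-KO, Atxn2-/-) and 1 of wild-type animals (Atxn2+/+). A library is a pool of 3 animals, no agent or treatment is named, and the knockout is present in every tissue of the knockout animals. The labels' protocol text speaks of midbrain instead of hippocampus and of ages in weeks, and the tissue and age given for each sample were followed. The assay was MACE (massive analysis of cDNA ends), which reads a fragment next to the poly(A) tail, so that a transcript yields a single tag whatever its length and tags can be compared between genes. Tags were summed per gene symbol over the RefSeq transcript records of the combined table. This gave 22920 genes or joint features with a sense tag, of which 12907 had enough tags to be tested.

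Hepatocytes, the main cells of liver, secrete most plasma proteins, make and break down glucose, dispose of nitrogen as urea, synthesise bile acids and oxidise drugs and fatty acids. Neurons send signals through ion channels and synaptic vesicles and depend on a large cytoskeleton, while oligodendrocytes wrap axons in myelin and astrocytes clear transmitters. Many enzymes and structural proteins exist as isoenzymes or paralogues, encoded by separate genes, and organs commonly use different members of such a family. The genotype of the animals served as a block in the comparison, so that knockout liver was weighed against knockout brain and wild-type liver against wild-type brain. In bulk tissue a lower level can mean fewer cells of a type or less RNA in each cell, and these cannot be told apart here.

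Values for all 6 libraries are given below in the order knockout cerebellum, wild-type cerebellum, knockout hippocampus, wild-type hippocampus, knockout liver and wild-type liver. Levels are in CPM, the tags of a gene scaled to the gene tags of the library with TMM factors (trimmed mean of M values). A gene was called higher or lower in liver when the Benjamini-Hochberg adjusted p of edgeR's quasi-likelihood test was under 0.05. Because a library pools animals and the 4 brain libraries come from different tissues, these p-values measure the spread between libraries and not the spread between animals. Atxn2 itself had 0, 167, 1, 194, 2 and 115 tags, so the knockout label held in each tissue, and its level did not pass the test between organs (log2 difference 0.69 ± 0.66, SE, edgeR adjusted p = 0.402). Xist, the transcript of the inactive X chromosome, had 0, 34, 0, 49, 0 and 87 tags. The block therefore separates libraries that differ in Xist as well as in genotype.

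The tissue labels were checked on genes that define the tissues. Pcp2, a Purkinje cell protein, had 2390 and 2637 CPM in cerebellum against 9.07 and 26.8 CPM in hippocampus and 45.1 and 39.9 CPM in liver. Neurod6, a factor of forebrain pyramidal neurons, had 14, 25, 473, 483, 0 and 6 tags. The libraries labelled hippocampus thus carried forebrain transcripts. Alb, which encodes serum albumin, had 181, 306, 154, 892, 82086 and 75447 CPM and set the 2 liver libraries apart.

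Liver RNA was far more concentrated in a few genes. The 10 most abundant genes took 20.4% and 19.3% of gene tags in knockout and wild-type liver against 5.81% to 7.06% in brain, and 135 and 161 genes held 50% of the gene tags of liver against 687 to 786 genes in brain. Gene tags numbered 1774523 and 2727523 in liver and 2139501 to 2360459 in brain, and 14484 and 15775 genes had a tag in liver against 17641 to 17944 in brain. This difference in make-up bears on every comparison of levels. TMM scaling, the main choice, gave liver factors of 0.537 and 0.579 and brain factors of 1.27 to 1.40 and put the median log2 difference of all tested genes at -0.23. Scaling to the total of gene tags instead put this median at -1.48, a shift of all genes that turned the share of calls that were higher in liver from 51.0% to 19.6%. Lists are therefore read against the median of all genes, and a gene whose direction turns with the scaling is named as such.

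Before the results, the level of each organ's own transcripts in the other organ's libraries is needed. Among 353 genes with a mean of at least 1000 tags in liver none was at 0 in brain, and the lowest, Saa1, stood at 0.407% of its liver level. Among 371 genes with such a mean in brain none was at 0 in liver, and the lowest, Stmn3, stood at 0.626% of its brain level. The 10 defining hepatocyte genes with a mean of at least 100 tags in liver had median levels in the 4 brain libraries of 0.417%, 0.735%, 0.279% and 1.5% of their liver level on the scale of library totals. The exception among them was Ttr, the thyroxine carrier also made by choroid plexus, at 19.5% and 28.1% in cerebellum. In the other direction 10 neuron genes stood at medians of 1.35% and 1.86% of their brain level in knockout and wild-type liver, and 7 oligodendrocyte genes at 1.01% and 1.33%. Granule and Purkinje cell genes of cerebellum stood at medians of 0.729% and 1.98% in the hippocampal libraries and 0.690% and 1.03% in liver. Among them Calb1 stood at 18.1% and 14.3% and Itpr1 at 12.9% and 15.5% in hippocampus. The 8 genes of hippocampal pyramidal and dentate cells stood at medians of 2.44% and 3.58% in cerebellum, with Wfs1 highest at 44.3% and 49.8%, and of 0.733% and 0.875% in liver. Barcoded libraries shared a sequencer lane, per the labels' protocol. Whether such tags come from low expression in the organ or from RNA of another tissue was not tested, and the largest fold changes below rest on them.

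**Figure D1:**
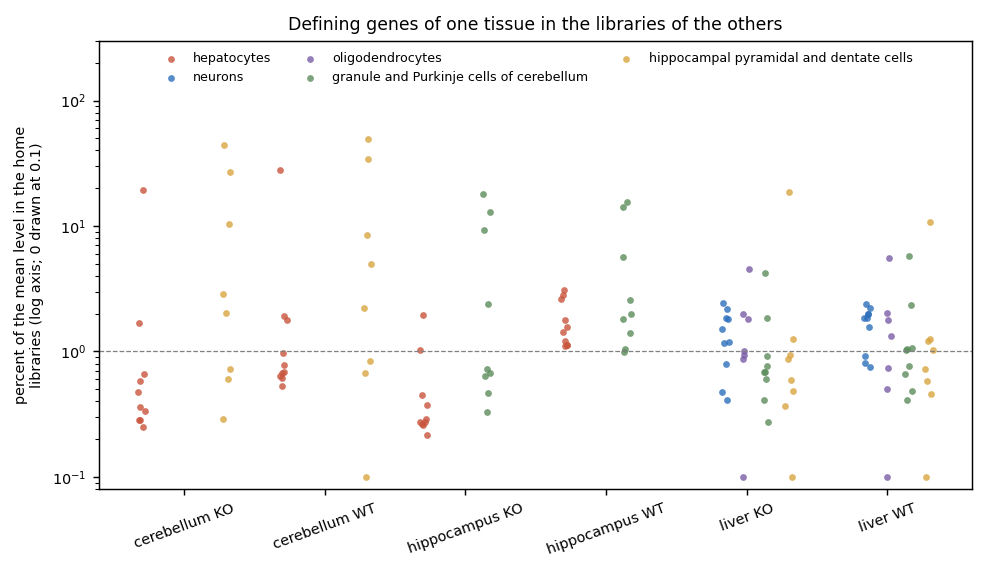
Level of defining genes of each cell type in the libraries of the other tissues, as percent of their level in the home tissue (log axis, library totals, 0 drawn at 0.1); each point is 1 gene, each colour a cell type and each label a library. Neuron genes gather around medians of 1.35% and 1.86% in liver and hepatocyte genes around 0.279% to 1.5% in brain, with Ttr in cerebellum standing apart.

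Promoters of genes higher in liver, of genes lower in liver and of a gene at equal level are shown. They are from the RefSeq promoter table of the GRCm38.p6 build, are written 5′ to 3′ on the strand of the gene and end at the base before the transcription start. Capitals mark GTTAAT, a motif known from liver promoters, in Alb (chr5:90460750-90460869, plus strand), Serpina1c (chr12:103904951-103905070, minus strand) and Gc (chr5:89457899-89458018, minus strand). They mark TGACGTCA, the cyclic AMP response element, in Syn1 (chrX:20920919-20921098, minus strand) and GGGCGG, the GC box bound by Sp1, in Syp (chrX:7638460-7638579, plus strand) and Cct6a (chr5:129787236-129787355, plus strand).
Alb: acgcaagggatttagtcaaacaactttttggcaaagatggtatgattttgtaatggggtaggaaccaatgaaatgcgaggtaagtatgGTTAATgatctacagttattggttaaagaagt
Serpina1c: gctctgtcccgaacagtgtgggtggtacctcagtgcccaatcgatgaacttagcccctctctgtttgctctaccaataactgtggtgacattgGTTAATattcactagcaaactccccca
Gc: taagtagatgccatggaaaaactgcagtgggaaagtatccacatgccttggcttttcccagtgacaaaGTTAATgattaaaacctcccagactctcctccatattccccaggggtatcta
Syn1: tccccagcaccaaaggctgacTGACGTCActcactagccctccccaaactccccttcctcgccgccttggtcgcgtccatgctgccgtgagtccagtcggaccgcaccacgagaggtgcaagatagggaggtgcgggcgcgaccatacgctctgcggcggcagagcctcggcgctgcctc
Syp: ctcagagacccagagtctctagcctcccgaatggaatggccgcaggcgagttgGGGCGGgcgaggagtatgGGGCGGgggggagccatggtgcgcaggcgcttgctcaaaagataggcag
Cct6a: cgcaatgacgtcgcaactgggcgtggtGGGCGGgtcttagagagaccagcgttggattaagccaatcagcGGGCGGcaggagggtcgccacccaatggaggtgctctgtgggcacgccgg
The GTTAAT of Alb lies 32 to 27 bases before the start, that of Serpina1c 27 to 22 and that of Gc 52 to 47. Over all 32851 mouse promoters of the table, searched on both strands in the window upstream of the start, 6.43% held GTTAAT, 1.55% TGACGTCA and 32.7% GGGCGG. Of the 15 most abundant genes at least 32-fold higher in liver, 12 had an entry and 5 of these held GTTAAT, namely Alb, Fabp1, Gc, Serpina1c and Serpina1e. Of the 15 most abundant on the brain side 11 had an entry and 2 held GTTAAT, Cplx2 and Rtn1. Other motifs were searched too. Of the 12 liver genes 0 held CAAAGTCC (HNF4-type), TTGCGCAA (C/EBP) or TGACGTCA, 9 held CCAAT, 3 TATAAA and 1 GGGCGG. Of the 11 brain genes 2 held CCAAT, 2 TATAAA, 4 GGGCGG and 1 TGACGTCA. Over all promoters CCAAT was held by 33.8% and TATAAA by 12.4%. A gene was counted if any of its promoters held the motif, whereas the percentages are per promoter. Such matches describe the letters of the window and are neither sites nor causes.

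Liver and brain differed in a large part of the tested transcripts, about equally in both directions under TMM scaling. Of 12907 genes, 3445 were called higher in liver (26.7%) and 3312 lower (25.7%), while 6150 passed in neither direction. At an unadjusted p under 0.05 the count was 7653. A difference of at least 32-fold was found for 777 of the higher genes (6.02% of the genes tested) and for 604 of the lower ones (4.68%). The 777 genes took 46.3% and 46.2% of the gene tags of liver and 0.380% to 1.02% of those of brain. The 604 genes took 7.77% to 8.56% of the gene tags of brain and 0.0715% and 0.0927% of those of liver. By this count the liver-enriched genes filled a large part of the liver libraries, and the brain-enriched genes a small part of those of brain. These shares hold for the 32-fold cut under TMM scaling. Neuron markers, with a median log2 difference of -4.86 (library totals -6.13), lay near that cut. Of 9 tested granule and Purkinje cell markers 2 were called lower in liver, and of 10 hippocampal markers 1, so most of them were not counted. Leaving out the knockout or the wild-type liver library left 1 liver library for the organ, and fewer genes were then called in both directions.

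**Figure D2:**
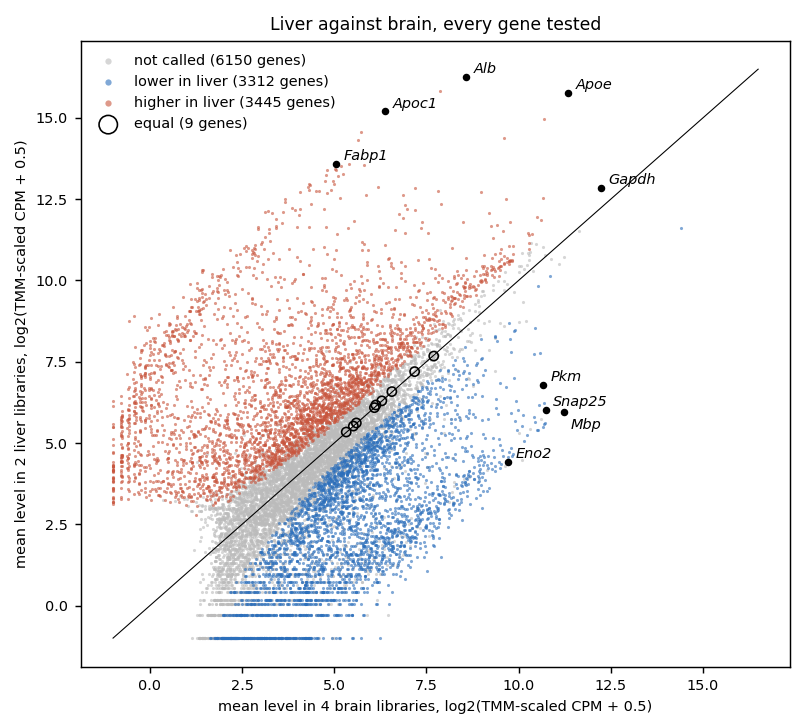
Mean level of every tested gene in the 2 liver libraries against the 4 brain libraries, both as log2(TMM-scaled CPM + 0.5), with the line of equality. Under TMM scaling 3445 genes are higher in liver, 3312 lower and 6150 not called, and circles mark the 9 genes equal in both. Alb and Fabp1 lie on the upper left edge of the cloud and Mbp and Eno2 on the lower right edge, and under scaling to library totals the calls are 1741 and 7153.

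The most abundant strongly liver-enriched genes were, in falling order, Alb, Apoc1, Apoa2, Apoa1, Fabp1, Mup20, Hpx, Gc, Apoc3, Rbp4, Gnmt, Serpina1e, Serpina1c, Mup3 and Bhmt. They encode albumin, apolipoproteins, carriers of haem, vitamin D, retinol and pheromones, protease inhibitors, a fatty acid binding protein and enzymes of methionine metabolism. Alb had a log2 difference of 8.07 ± 0.74 (SE, n = 2 liver and 4 brain libraries, edgeR adjusted p = 0.000587). Among brain libraries Alb was highest in wild-type hippocampus at 892 CPM, far below either liver library, so the organs did not overlap. Tags of Mup20 lie mostly in rows shared with other records of this near-identical family and are uncertain for single members. On the brain side the most abundant included, in falling order, Mbp, Rtn1, Slc17a7, Cpe, Mt3, Meg3, Aplp1, Ptgds, Pcp4, Eno2, Syp, Tubb4a, Cplx2 and Mtap1a. These encode myelin basic protein, an axonal reticulon, the vesicular glutamate transporter, a prohormone-processing enzyme, a brain metallothionein, a noncoding RNA and proteins of vesicles and microtubules. Mbp had 2370, 3565, 1554, 2078, 45.1 and 77.3 CPM and a log2 difference of -5.31 ± 0.44 (SE, edgeR adjusted p = 0.000445). All 4 brain libraries exceeded both liver libraries by a wide margin. The joint feature Bc1/Lrrc17, which holds the neuronal BC1 RNA, was the most abundant of all in brain, with 14794 to 28042 CPM against 3965 and 2294 CPM in liver.

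Secretion of plasma proteins was the strongest of the liver programmes. All 58 tested plasma protein genes were higher in liver, with a median log2 difference of 8.48, against -0.23 over all genes tested. Apoc1, an apolipoprotein of lipoprotein remnants, had 51.0, 98.2, 40.0, 144, 40217 and 35398 CPM. Brain and liver libraries of Apoc1 were far apart, and its log2 difference was 9.06 ± 0.54 (SE, edgeR adjusted p = 0.000231). Ttr had the smallest difference of the list, with 2482, 3584, 142, 389, 37742 and 26480 CPM. Cerebellum stood well above hippocampus for Ttr, and the log2 difference was 4.33 ± 1.27 (SE, edgeR adjusted p = 0.0343), which under scaling to library totals was 3.00 and not called. Folr1, another gene of choroid plexus, was likewise higher in cerebellum, with 42, 81, 4, 4, 0 and 2 tags.

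Nitrogen and amino acid metabolism followed closely. Of 43 tested genes of the urea cycle and amino acid breakdown 42 were higher in liver and none lower, with a median log2 difference of 7.98. Gnmt, which uses up S-adenosylmethionine, had 22.8, 30.3, 10.4, 43.1, 9881 and 9403 CPM, and Ass1, a urea cycle enzyme, had 18.2, 29.4, 26.2, 67.0, 6102 and 5901 CPM. The brain libraries of both genes lay far below liver, and the log2 differences were 8.64 ± 0.53 and 7.55 ± 0.52 (SE, edgeR adjusted p = 0.000234 and 0.000282). Cps1, the entry enzyme of the urea cycle, had 1, 0, 0, 0, 58 and 77 tags, with a liver to brain ratio of 652 (counting interval 115 to 25947). The exception was Got1, the cytosolic aspartate aminotransferase that brain also uses, with 206, 189, 228, 235, 295 and 297 CPM. Its log2 difference of 0.47 ± 0.19 did not pass (SE, edgeR adjusted p = 0.0905) and turned to -0.79, called lower, under library totals.

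Glucose production showed the same one-sided pattern. Of the 20 genes tested for gluconeogenesis and glycogen 19 were higher in liver, and the median log2 difference was 7.14. Fbp1, which takes phosphate off fructose bisphosphate, had 1.88, 2.73, 1.34, 11.2, 1564 and 1160 CPM and a log2 difference of 8.63 ± 0.82 (SE, edgeR adjusted p = 0.000666). Its brain libraries lay far below both liver libraries. Pklr, the liver pyruvate kinase, had 89 and 101 tags in liver and 0 in all brain libraries, so that liver was at least 306-fold higher on a floor of 3 tags over the brain libraries together. Gyg, the primer of glycogen, was the exception, with 16.9, 16.7, 36.3, 32.9, 21.0 and 8.87 CPM and overlapping organs (log2 difference -0.87 ± 0.54, SE, edgeR adjusted p = 0.219). Under library totals it was -2.11 and called lower.

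Bile acid genes were higher in liver for all 23 tested, with a median log2 difference of 7.6. Slc27a5, which activates bile acids, had 4.69, 6.97, 2.02, 11.9, 2110 and 1679 CPM, and Abcg5, a sterol exporter, had 38 and 88 tags in liver and 0 in brain, at least 203-fold higher. Slc10a1, the bile acid importer of hepatocytes, had 5.95, 6.37, 14.1, 17.4, 1034 and 1155 CPM. Cyp7b1, an oxysterol hydroxylase also active in brain, had the smallest difference of the list. Its CPM of 5.01, 4.55, 18.1, 18.8, 183 and 148 were higher in hippocampus than in cerebellum, and the log2 difference was 3.82 ± 0.66 (SE, edgeR adjusted p = 0.00565).

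Detoxifying enzymes were higher in liver for all 46 tested P450 and conjugating genes, with a median log2 difference of 8.28. Cyp2e1, which oxidises ethanol and small solvents, had 42.6, 45.8, 54.7, 85.4, 6146 and 6609 CPM. Gstm1, a glutathione transferase with a clear level in brain, had 456, 493, 506, 549, 8135 and 5509 CPM and a log2 difference of 3.75 ± 0.26 (SE, edgeR adjusted p = 0.000281). Por, the reductase that feeds electrons to all microsomal P450 enzymes, had the smallest difference, 2.03 ± 0.40 (SE, edgeR adjusted p = 0.00861), from 21.6, 21.2, 31.9, 15.6, 62.9 and 119 CPM. Under library totals the difference of Por was 0.77 and not called.

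Fatty acid oxidation and peroxisomes had the smallest median difference of the 7 liver lists. All 31 tested genes were higher in liver, with a median log2 difference of 4.26. Fabp1, the fatty acid carrier of hepatocytes, had 18.2, 30.6, 15.1, 66.6, 12198 and 12601 CPM. Cat, peroxisomal catalase, had 31.0, 45.8, 40.6, 66.6, 3644 and 3651 CPM. The brain libraries of Cat lay close together, and the log2 difference was 6.35 ± 0.31 (SE, edgeR adjusted p = 0.000197). Hadhb, the beta subunit of the mitochondrial trifunctional protein, had the smallest difference, 1.67 ± 0.24 (SE, edgeR adjusted p = 0.00276), which was 0.40 and not called under library totals.

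Liver transcription factor genes held the fewest tags of the liver lists in both liver libraries. Only the fatty acid list had a smaller median difference. Of 25 tested liver transcription factor genes 23 were higher in liver, with a median log2 difference of 6.71, or 6.27 with the 2 genes at 0 in brain set to their bound. Hnf4a, a nuclear receptor of hepatocytes, had 1.25, 1.21, 0, 2.17, 392 and 524 CPM, and Cebpa had 5.63, 8.79, 17.8, 18.8, 722 and 638 CPM. Atf5 was the most abundant of the list in liver, at 887 and 867 CPM against 31.2 to 53.8 CPM in brain (log2 difference 4.34 ± 0.28, SE, edgeR adjusted p = 0.000261). Prox1, which also marks dentate granule neurons, and Zgpat did not pass, with log2 differences of 1.26 ± 0.69 and 0.47 ± 0.41 (SE, edgeR adjusted p = 0.172 and 0.364). The sign of Zgpat turned to -0.78 under library totals, and its libraries overlapped between organs.

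**Figure D3:**
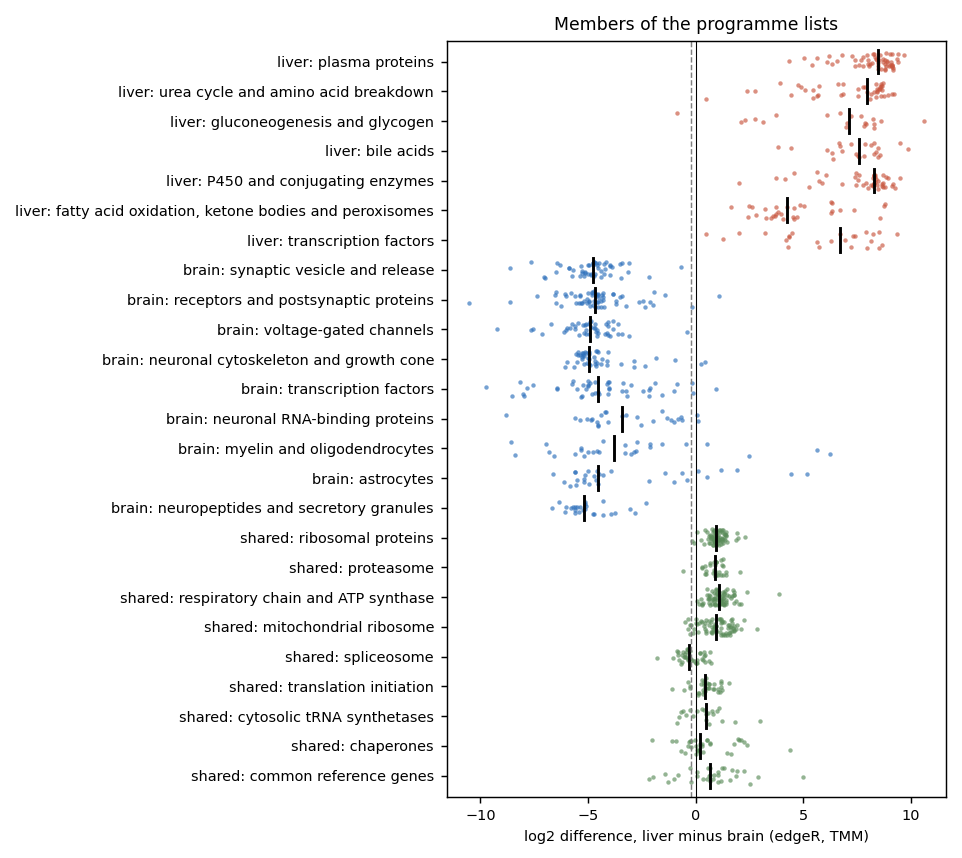
Log2 difference (liver minus brain, TMM scaling) of every tested member of the liver and brain lists, 1 point per gene, with the median of each list. The liver lists have medians from 4.26 to 8.48 and the brain lists from -5.19 to -3.42, and the dashed line marks the median of all genes tested, -0.23.

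Genes of synaptic transmission were among the most abundant of the brain programmes. Of 51 tested genes of synaptic vesicles and release 44 were lower in liver and none higher, with a median log2 difference of -4.75. Snap25, a SNARE of the presynaptic membrane, had 1767, 1826, 1476, 1759, 50.4 and 78.5 CPM and a log2 difference of -4.75 ± 0.30 (SE, edgeR adjusted p = 0.000246). Slc17a7, which loads vesicles with glutamate, had 829, 825, 2398, 2501, 60.8 and 34.2 CPM and was higher in hippocampus than in cerebellum. Rab3a, a vesicle GTPase, had 1102, 1173, 1454, 1044, 34.6 and 40.5 CPM. No liver library reached any brain library for these genes. In knockout and wild-type liver Slc17a7 stood at 1.52% and 0.921% of its brain mean on the scale of library totals, the level described above for neuron genes.

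Transmitter receptors and postsynaptic proteins were lower in liver for 45 of 62 tested genes and higher for 1, with a median log2 difference of -4.66. The gene that was higher was Gphn, which anchors glycine and GABA receptors at synapses and makes molybdenum cofactor in liver. It had 26.9, 31.8, 31.6, 38.0, 49.3 and 88.7 CPM and a log2 difference of 1.07 ± 0.23 (SE, edgeR adjusted p = 0.0128), which turned to -0.19 and no call under library totals. Camk2b, a calcium-dependent kinase of the synapse, had 362, 330, 673, 776, 15.7 and 26 CPM. Glrb, the beta subunit of the glycine receptor, had 282, 264, 200, 176, 0 and 0 tags and was at least 63.6-fold lower in liver.

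Of the 16 receptor genes without a call, all 16 were lower in liver than in at least 1 brain tissue in a fit with tissue as 3 levels, and 4 were lower than in both. Camk2a, a kinase of forebrain synapses, had 28.8, 31.5, 1274, 1833, 22.0 and 15.8 CPM, Nrgn had 17.2, 19.4, 3002, 3237, 65 and 39.9 CPM, and Gabra6, the granule cell GABA receptor subunit, had 566, 628, 3.02, 9.05, 9.44 and 15.2 CPM. Liver stood far nearer to the brain tissue in which each was low than to the other. In that fit liver was still called higher than the low tissue for 2 of them. Nrgn was 1.48 above cerebellum and Gabra6 1.08 above hippocampus on the log2 scale (edgeR adjusted p = 0.000464 and 0.0282). Among the 62 receptor genes 4 were higher in liver than in cerebellum and 2 than in hippocampus. By the same fit 61 of the 62 receptor genes were lower in liver than in at least 1 brain tissue, against 42.2% of all genes tested. Of all 6150 genes without a call 34.8% were lower than in at least 1 brain tissue. For the uncalled members of the other brain lists the count was 6 of 7 vesicle genes, 9 of 10 channel genes, 23 of 26 transcription factors and 14 of 14 neuropeptide genes. It was 3 of 4 myelin genes, 6 of 8 astrocyte genes, 2 of 4 cytoskeleton genes and 2 of 5 genes of RNA-binding proteins.

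Voltage-gated channels were lower in liver for 36 of 46 tested genes and higher for none, with a median log2 difference of -4.90. Kcnc1, a potassium channel of fast-firing neurons, had 656, 701, 128, 146, 6.29 and 10.1 CPM and a log2 difference of -5.62 ± 1.19 (SE, edgeR adjusted p = 0.0114). It stood higher in cerebellum than in hippocampus, and both exceeded liver. The level of Kcnn2, a calcium-activated potassium channel, was 9.44 and 9.50 CPM in liver against 10.5 to 17.1 CPM in brain, the smallest difference of the list at -0.41 ± 0.33 (SE, edgeR adjusted p = 0.322).

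The neuronal cytoskeleton was the brain list with the largest share of calls. Of 45 tested genes 41 were lower in liver and none higher, with a median log2 difference of -4.94. Rtn1 had 1338, 1275, 2018, 2061, 40.9 and 57.0 CPM, Tubb4a, a brain beta tubulin, had 1126, 1087, 583, 538, 25.2 and 20.9 CPM, and Mtap1a, a microtubule-associated protein, had 535, 560, 836, 1000, 16.8 and 22.8 CPM. Stmn3, a regulator of microtubules, had the lowest log2 difference, -6.06 ± 0.56 (SE, edgeR adjusted p = 0.000606), from 566, 538, 505, 448, 3.15 and 12.0 CPM. Liver and brain did not overlap for any of them. Tuba4a, an alpha tubulin, was at 387 and 429 CPM in liver and 268 to 343 CPM in brain and was not called, with a difference of 0.43 that turned to -0.83 under library totals.

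Brain transcription factors had the most genes without a call among the brain lists, and of the 23 given above as lower than in at least 1 brain tissue 6 were lower than in both. Against both brain tissues together 21 of 47 tested genes were lower in liver and none was higher, with a median log2 difference of -4.54, or -3.42 with the 11 genes at 0 in liver set to their bound. Sox2, a factor of glia and progenitors, had 124, 127, 149, 133, 0 and 0 tags and was at least 36.8-fold lower in liver. Tcf4 had 276, 270, 475, 527, 31.5 and 42.4 CPM and Zfp238, a transcriptional repressor, had 434, 395, 334, 353, 31.5 and 39.3 CPM. They were 10.5-fold and 10.7-fold lower in liver and did not overlap. Junb, an immediate early gene, was not called, with 7.2, 3.33, 27.9, 22.1, 28.3 and 28.5 CPM, so that liver stood near hippocampus and above cerebellum. RNA-binding proteins of neurons were lower in liver for 22 of 27 genes, with a median log2 difference of -3.42. Rbfox3, the NeuN antigen, had 909, 814, 610, 553, 33.6 and 26.6 CPM, Elavl3 had 503, 551, 453, 466, 10.5 and 9.50 CPM, and Nova1 was at 0 in liver and at least 19.7-fold lower.

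Glial lists held the clearest exceptions. Myelin and oligodendrocyte genes were lower in liver for 21 of 28 and higher for 3, with a median log2 difference of -3.80. The 3 that were higher were Gjb1, Trf and Qdpr, which hepatocytes also make as gap junction protein, plasma transferrin and biopterin reductase. Gjb1 had 59.2, 51.8, 25.9, 28.2, 3112 and 3170 CPM and Trf had 212, 169, 78.9, 120, 7168 and 7410 CPM, while both were higher in cerebellum than in hippocampus. Their log2 differences were 6.25 ± 0.45 and 5.65 ± 0.46 (SE, edgeR adjusted p = 0.000304 and 0.000407). Astrocyte genes were lower for 18 of 30 and higher for 4, with a median log2 difference of -4.54. Those higher in liver were Aldh1l1, a folate enzyme at 66.7, 59.7, 34.3, 51.4, 2015 and 1869 CPM, Apoe at 2288, 2180, 2897, 3112, 65259 and 46962 CPM, Clu and Ndrg2. The log2 differences were 5.20, 4.41, 1.93 and 1.19, and that of Ndrg2 turned to -0.08 and no call under library totals. Aldh1l1, widely used to mark astrocytes in brain, was thus 36.6-fold higher in liver, while Gfap, the astrocyte filament, had 92.0, 104, 218, 263, 7.34 and 6.97 CPM.

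Neuropeptide and secretory granule genes were lower in liver for 12 of 26 and higher for none, with a median log2 difference of -5.19, or -4.53 with 6 genes at their bound. Pcsk1n, an inhibitor of the prohormone convertase, had 1421, 1408, 2045, 1883, 78.7 and 50.0 CPM. Cck had 121, 122, 793, 804, 6.29 and 12.7 CPM and was highest in hippocampus. Cbln1, a synapse organiser of granule cells, had 1948, 1867, 14, 32, 6 and 17 tags, so that hippocampus and liver both stood far below cerebellum.

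Isoenzymes and paralogues were examined in 72 families with 249 members, of which 232 were tested. A family was said to switch when the same member had the most tags of its family in both liver libraries and another member had the most in all 4 brain libraries. Such shares within a library do not depend on scaling between libraries. By this rule 37 families switched, 15 kept the same leader in all 6 libraries and 20 fell under neither rule and are called mixed. In 19 of the 37 the liver leader was called higher and the brain leader lower.

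**Figure D4:**
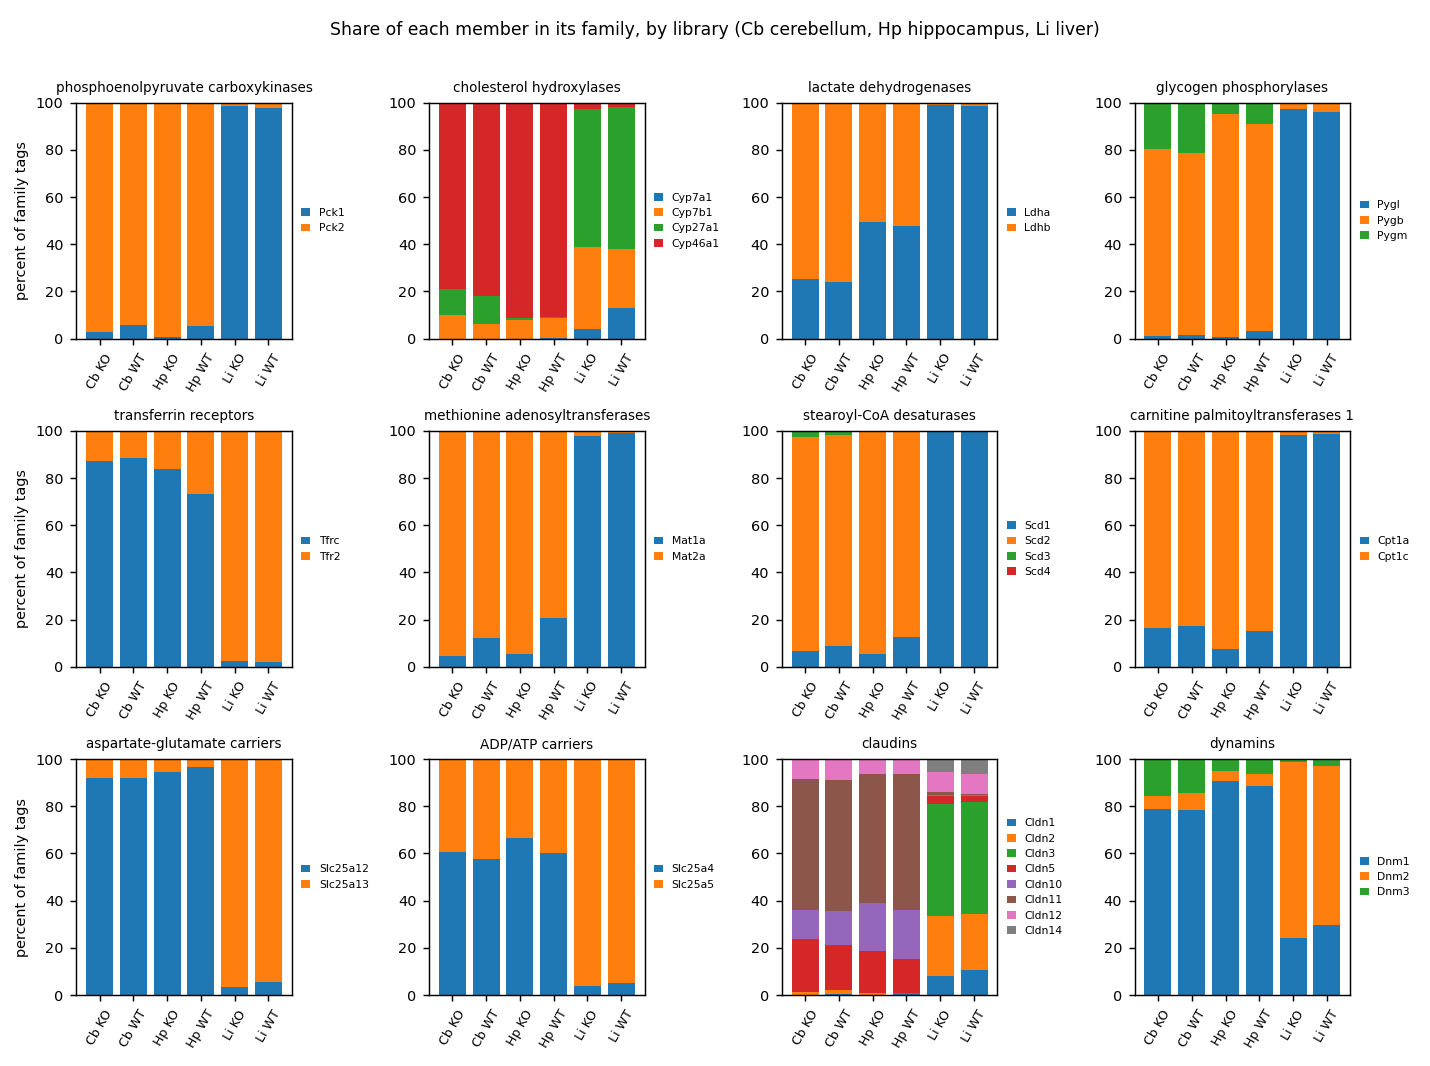
Share of each member in the tags of its family, in percent of the family's tags in each of the 6 libraries, for 12 enzyme, transporter, receptor and structural families. Both liver bars show another leading member than the brain bars in each panel, while the lactate dehydrogenases also differ between cerebellum and hippocampus.

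Glucose and glycogen enzymes switched at several steps. Hk1, the general hexokinase of brain, had 211, 189, 258, 253, 25.2 and 11.4 CPM, a log2 difference of -3.71 ± 0.38 (SE, edgeR adjusted p = 0.000823). Pygl, the liver glycogen phosphorylase, took 97.2% and 96.0% in liver and Pygb 77.2% to 94.3% in brain. Glycogen synthase tags were Gys2 for 99.3% and 98.8% in liver and Gys1 for 93.1% to 100% in brain, from only 26 to 44 family tags in each brain library.

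Lactate dehydrogenase was Ldha for 99.2% and 98.4% of tags in liver, while brain used both forms. Ldhb had 684, 652, 381, 402, 18.9 and 27.9 CPM and took 74.9% and 76.0% of the family in cerebellum. In hippocampus its share was 50.8% (exact interval 48.7% to 52.9%) and 52.5% (50.3% to 54.6%), so that its lead in the knockout library was within counting error. Such intervals cover counting error only. Over both leaders of 34 other switching families the median width of the exact interval was 5.66 percentage points, and the widest, 35, was that of the thyroid hormone receptors. Pck1, the cytosolic carboxykinase of gluconeogenesis, took 98.7% and 97.8% in liver and the mitochondrial Pck2 94.1% to 99.1% in brain. Pyruvate kinase stayed with Pkm, which took 53.2% (45.8% to 60.4%) and 63.9% (58.0% to 69.6%) of tags in liver beside Pklr and 100% in brain. Pkm in liver stood at 2.61% and 3.01% of its mean brain level on the scale of library totals, above the highest of the 10 neuron genes given earlier, at 2.43% and 2.38%. It lay below Cnp, the highest of the oligodendrocyte genes, at 4.58% and 5.54%.

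Amino acid and one-carbon enzymes switched with large margins. Mat1a took 97.9% and 99.0% of methionine adenosyltransferase tags in liver, while Mat2a took 79.1% to 95.5% in brain. The members moved unequally, since Mat1a was higher in liver at 8.55 while Mat2a had 53.5, 64.6, 57.4, 59.0, 48.3 and 22.2 CPM and its difference of -0.79 ± 0.34 was not called (SE, edgeR adjusted p = 0.101). The aspartate-glutamate carriers of mitochondria were Slc25a13 for 96.7% and 94.3% in liver and Slc25a12 for 91.8% to 96.5% in brain, with log2 differences of 6.13 and -2.09.

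Lipid enzymes switched in the same manner. Scd1 took 99.7% and 99.6% of stearoyl-CoA desaturase tags in liver and Scd2 87.1% to 94.2% in brain. Scd2 had 734, 809, 671, 811, 22.0 and 31.7 CPM, and Scd1 had 56.3, 78.2, 38.6, 118, 7942 and 7172 CPM. Cpt1a, which admits fatty acids to mitochondria, took 98.2% and 98.6% in liver and Cpt1c, the neuronal form, 82.5% to 92.2% in brain. Hmgcs1, which serves sterol synthesis, was higher in liver, with 28.8, 36.4, 76.6, 58.3, 274 and 342 CPM (log2 difference 2.62 ± 0.43, SE, edgeR adjusted p = 0.00452). Of the acetyl-CoA carboxylases Acacb led in liver, yet Acaca, the brain leader, was also higher in liver, with log2 differences of 5.41 and 2.03. The lead of Acacb was narrow in knockout liver, with 130 tags against 113, and wider in wild-type liver, with 371 against 174. Among cholesterol hydroxylases Cyp46a1, the brain enzyme, took 79.0% to 91.3% in brain, and Cyp27a1 took 58.4% and 60.3% in liver.

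Carriers, channels and junctions gave further switches. The ADP/ATP carrier was Slc25a5 for 96.3% and 95% in liver and Slc25a4 for 57.8% to 66.4% in brain. Claudins were led by Cldn3 in liver, 47.6% and 47.4%, and by the myelin claudin Cldn11 in brain, 54.7% to 57.9%. Aquaporins were led by Aqp8 and the astrocyte Aqp4, iodothyronine deiodinases by Dio1 and Dio2, transferrin receptors by Tfr2 and Tfrc. Tfrc itself was not called, at -1.0 ± 0.36 (SE, edgeR adjusted p = 0.0620). Slc2a2, the glucose transporter of hepatocytes, took 95.8% and 95% in liver, while Slc2a1 led in cerebellum by few tags and Slc2a3 in hippocampus.

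RNA-binding, nuclear receptor and trafficking families also changed leader. Ptbp1 took 72.5% and 60.8% of polypyrimidine tract binding protein tags in liver and Ptbp2 50.7% to 60.4% in brain. Ptbp1, a splicing repressor of non-neuronal cells, had 31.3, 36.4, 23.8, 17.4, 116 and 111 CPM and Ptbp2 had 45.4, 46.4, 60.5, 54.7, 10.5 and 7.6 CPM, and they were called in opposite directions. Under library totals the difference of Ptbp1 was 0.78 and not called. Elavl1 led over Elavl3 in liver, Nr1h3 over Nr1h2, Rxra over Rxrb and Thrb over Thra. In wild-type hippocampus the lead of Rxrb over Rxra was narrow, with 91 tags against 80. Thrb had 20 and 52 tags in liver and was not called (log2 difference 1.42 ± 0.62, SE, edgeR adjusted p = 0.103). Actl6b, the neuronal subunit of the BAF chromatin complex, had 121, 115, 209, 187, 1 and 0 tags, a brain level 131-fold the liver level with a counting interval of 23.4 to 5175. Kinesin heavy chains were led by Kif5b in liver and Kif5a in brain, though Kif5b was itself 3.00-fold lower in liver. Dnm2 made up 74.4% and 67.4% of dynamin tags in liver and Dnm1 78.3% to 90.5% in brain, and vesicle SNAREs passed from Vamp2 to Vamp8, which had 474 and 460 CPM in liver.

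The same leader held in all 6 libraries in 15 of the 72 families. They were led by Eno1, Pgam1, Pkm, Fbp1, Pdk2, Ckb, Arg1, Atp2a2, Actb, Ppp3ca, Snap25, Rab3a, Atp6v0a1, Cox6a1 and Cox7a2. For several of these the leader's level in one organ was as low as that of other genes of the opposite organ. In knockout and wild-type liver Snap25 stood at 1.18% and 1.98% of its brain mean, Rab3a at 1.17% and 1.47% and Ckb, brain creatine kinase, at 1.48% and 1.93%. Arg1, the last enzyme of the urea cycle, stood at 0.434% to 1.42% of its liver mean in the brain libraries and Fbp1 at 0.227% to 1.92%. Actb, Pdk2 and Cox7a2 were abundant in both organs. Actb had 1099, 1171, 2278, 2180, 1825 and 1675 CPM, so that liver lay between the 2 brain tissues, and its log2 difference of 0.06 ± 0.41 turned to -1.19, called lower, under library totals. Connexins and carbonic anhydrases were mixed families, led in liver by Gjb1 with 89.7% and 89.3% and by Car3 with 87.4% and 71.4%.

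Machinery that every cell uses moved less, and its direction depended on the scaling. Under TMM scaling 67 of 79 ribosomal protein genes were higher in liver and none lower, with a median log2 difference of 0.97, which under library totals became -0.29. Relative to the median of all genes the ribosomal proteins stood 1.20 higher under TMM scaling and 1.19 under library totals, as a change of scaling shifts all genes nearly alike. The respiratory chain and ATP synthase had 65 of 75 genes higher and none lower, median 1.10 (library totals -0.17), the proteasome 21 of 31 and none, median 0.92 (-0.34), and the mitochondrial ribosome 48 of 76 and none, median 0.96 (-0.30). Rps2, of the small ribosomal subunit, had 438, 393, 1034, 868, 3721 and 2992 CPM and the largest difference of its list, 2.29 ± 0.46 (SE, edgeR adjusted p = 0.00919). Uqcrq, of complex III, had 597, 624, 635, 568, 3678 and 2799 CPM, Psmd11 of the proteasome lid had 41.3, 40.3, 34.3, 34.0, 147 and 171 CPM, and Mrpl14 had 44.1, 37.9, 45.3, 40.9, 306 and 293 CPM. These 3 were higher in liver under both scalings, whereas Rps2 was not called under library totals. Rpl22 and Ndufa5 were among the members without a call, with differences of -0.19 and 0.07 that were called lower under library totals.

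Spliceosome genes did not share that shift. Of 41 tested 1 was higher (2.44%) and 6 were lower (14.6%), against 26.7% and 25.7% of all genes. The median log2 difference was -0.31 (library totals -1.57), close to that of all genes by either scaling. U2af1 was the gene that was higher, at 0.72 ± 0.19 (SE, edgeR adjusted p = 0.0232), and it turned to -0.54, called lower, under library totals. Hnrnpa1 was lowest, at -1.81, with most of its tags in rows shared with other records. Translation initiation genes were higher for 11 of 36 (30.6%) and lower for 1 (2.78%), median 0.46 (library totals -0.81). The share that was higher was near the 26.7% of all genes tested, while the share lower was under their 25.7%. Under TMM scaling the median stood 0.68 above that of all genes. Eif4g1, the scaffold of the cap-binding complex, had 126, 109, 122, 137, 353 and 376 CPM, and its paralogue Eif4g3 had 167, 158, 150, 137, 80.8 and 64.0 CPM. The organs did not overlap for either, and the differences were 1.56 ± 0.19 and -1.09 ± 0.20 (SE, edgeR adjusted p = 0.00146 and 0.00706), with Eif4g1 at 0.30 and no call under library totals. Pabpc1, the poly(A)-binding protein, had 359, 388, 599, 654, 1290 and 1011 CPM, a difference of 1.20 that turned to -0.05 and no call under library totals.

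Cytosolic tRNA synthetases were higher for 7 of 21 (33.3%) and lower for 2, median 0.48 (library totals -0.78), and chaperones higher for 10 of 33 (30.3%) and lower for 3, median 0.20 (library totals -1.06). Both shares of higher genes were likewise near the 26.7% of all genes, while the shares lower, 9.52% and 9.09%, were under the 25.7% of all genes. Under TMM scaling the medians stood 0.71 and 0.42 above that of all genes. Tars, which charges threonine tRNA, had 24.1, 25.8, 19.5, 19.2, 184 and 168 CPM, and Wars, for tryptophan, had 90.5, 105, 101, 84.7, 55.6 and 48.1 CPM. P4hb, the disulfide isomerase of the secretory pathway, had 30.4, 31.2, 31.9, 32.9, 746 and 585 CPM and the largest difference of the chaperones, 4.39 ± 0.19 (SE, edgeR adjusted p = 0.000197). Fkbp1a, a cytosolic prolyl isomerase abundant in neurons, had 280, 252, 692, 696, 127 and 110 CPM. Hspa8, the constitutive heat shock protein, had 1762, 1824, 2126, 1807, 1793 and 1435 CPM and overlapping organs, with a difference of -0.23 that was -1.49 and called lower under library totals.

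**Figure D5:**
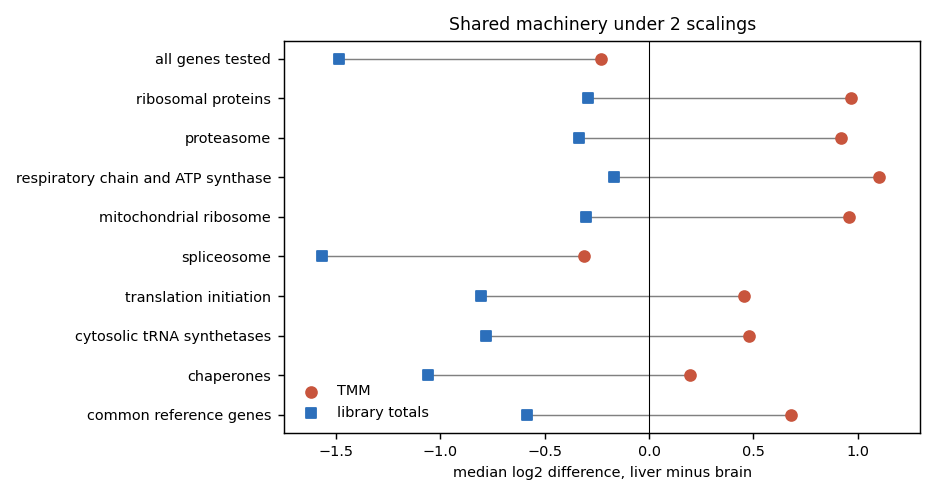
Median log2 difference (liver minus brain) of lists of shared machinery under TMM scaling and under scaling to library totals, with the median of all genes tested in the top line. All lists but the spliceosome have a median above 0 by TMM scaling and below 0 by library totals.

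Of 33 tested genes in common use as references, 18 were higher in liver (54.5%, against 26.7% of all genes), 4 lower (12.1%, against 25.7%) and 11 not called, with a median of 0.68 under TMM scaling that turned to -0.59 under library totals. B2m had 145, 165, 120, 156, 4902 and 4298 CPM and was 31.6-fold higher in liver, and Reep5 had 268, 264, 368, 379, 70.3 and 74.1 CPM and was 4.43-fold lower. Gapdh, at 4332, 4344, 5363, 5215, 9022 and 5742 CPM, was not called (0.59 ± 0.28, SE, edgeR adjusted p = 0.124) but was called lower at -0.67 under library totals, and its tags lie in rows shared with near-identical records. Hprt, with 49.1, 38.5, 61.8, 52.9, 59.8 and 31.7 CPM, had a difference of -0.20 that was -1.46 under library totals.

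Only 9 genes met the rule for equality, which asks that the 95% interval of the log2 difference lie within 0.5 of 0 and that the highest of the 6 libraries be at most 1.5 times the lowest. They were Scand1, Vps28, Nrbp1, Elp5, Cct6a, Trmt1, Uqcc, Erh and Rsrc1, and all 9 were called lower in liver under library totals. Scand1 had 224, 195, 223, 188, 208 and 200 CPM, and Vps28, of the ESCRT-I sorting complex, had 160, 149, 140, 130, 159 and 133 CPM. Cct6a, a subunit of the cytosolic chaperonin whose promoter is shown above, had 68.2, 67.3, 78.9, 63.7, 79.7 and 63.3 CPM. Liver values of these genes fell within the range of the brain values or beside it. With the interval widened to 1 on either side of 0 the count was 564.

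The difference between liver and brain was not found to depend on the genotype for any single gene. The test of the interaction called 0 of 12907 genes in edgeR and 0 in DESeq2, with 261 and 96 genes at an unadjusted p under 0.05. With 1 library per tissue and genotype this test has little to weigh a difference against. In the knockout libraries alone, 1 liver library against 2 of brain, 1569 genes were higher in liver and 960 lower, and of 6683 genes called in the full comparison and tested there 2524 were called again. These libraries are part of the full comparison and no independent check of it.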

How the data were processed

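The authors' deposited table gives raw tag counts per sequence record, sense and antisense, for 6 MACE libraries. The submitters' processing notes name CASAVA 1.8.2 and the build mm9, whereas the table names a GRCm38 set of genomic records. Which aligner matched the tags is not given in the labels used here. Sense counts of RefSeq RNA records were summed per symbol. Records of several symbols that shared a row were kept as joint features, 5493 of 24530, which held 5.50% of the gene tags. Mitochondrial genome records made up 10.1% to 14.3% of sense tags, genomic contigs 6.67% to 10.5% and tags with no hit 7.81% to 9.82%. They name no gene and did not enter library sizes. Gene tags per library ran from 1774523 to 2727523, so that a gene with few tags is known only to counting error.

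Liver was tested against brain in edgeR 4.0.16 (R 4.3.3) with a quasi-likelihood fit, TMM scaling, edgeR's filter on low counts by organ and the genotype as a block, with Benjamini-Hochberg adjustment at 0.05 over 12907 genes. A second fit took tissue as 3 levels. A ratio with 1 to 3 tags in an organ is printed with an exact interval, and against 0 tags a floor of 3 tags over the group was used. Both were scaled with the TMM factors and so depend on that choice. Alternatives were other scalings, filters and ways of summing records, limma 3.58.1, DESeq2 1.42.0, fits without the block, without a brain tissue and without each library. Scripts were tested on simulated data.

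The lists, families and members were chosen with earlier results of these data known. Genes named in the text are members of the families, the highest, the lowest and the 3 most abundant genes of each list, the 15 most abundant genes at least 32-fold apart in each direction, the equal genes, Atxn2 and Xist. Clone, predicted and joint names were left out of ranked parts, and some genes that the rule names are not reported here. Calb1, Cps1, Folr1, Gabra6, Gfap, Hprt, Itpr1, Prox1, Qdpr, Syn1, Saa1, Wfs1, the joint feature Bc1/Lrrc17 and the genes of the closing section were named after their values were seen.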

Additional observations from a re-analysis of the deposited data

Results flagged for a closer look

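Liver lay between the brain tissues for 101 of the 12907 genes tested. It was called higher than 1 brain tissue and lower than the other in the fit with tissue as 3 levels, which used TMM scaling. Liver was below cerebellum and above hippocampus for 48 of them and the reverse for 53. Some stood in liver at the low levels described above. On library totals Pcp2 stood at 0.690% and 0.657% of its cerebellar mean in liver (knockout first), against 0.329% and 0.984% in hippocampus. Nrgn stood at 0.873% and 0.577% of its hippocampal mean in liver, against 0.601% and 0.677% in cerebellum. The tissues overlapped for both. Car8, a Purkinje cell protein, had 2466, 3124, 18, 51, 90 and 188 tags, and liver differed by -3.03 from cerebellum and by 3.17 from hippocampus on the log2 scale. Reln, a matrix protein of granule cells and of stellate cells in liver, had 218, 243, 50.0, 38.7, 81.8 and 96.9 CPM, with log2 differences of -1.35 and 1.02. Homer2, a scaffold of glutamate receptors, lay the other way, with 14.7, 14.6, 57.4, 64.8, 25.2 and 43.1 CPM.

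Antisense tags, which no comparison above used, made up 7.754% of all tags of knockout liver and 8.056% of wild-type liver. Their share was 9.548% and 10.05% for the hippocampal libraries, knockout first, and 10.491% and 10.431% for those of cerebellum. Both liver libraries were below all 4 brain libraries. There are no control samples for this measure, and it was picked out only because these tags had not been used.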

How the results depend on the processing

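Genes higher in liver numbered 3445 and genes lower 3312. Scaling to library totals gave 1741 and 7153, and the knockout libraries alone, an alternative chosen after seeing the data, gave 1569 and 960. The knockout-only fit has 1 liver library, which is assumed to vary like brain. Limma voom gave 2141 lower genes. Leaving out each library in turn gave 2035 to 3143 higher and 1524 to 3179 lower genes, lowest without a liver library. Without the genotype block the counts were 3709 and 3769, and the pairing changed neither count by more than 1.5 times. Of 6757 called genes 5972 kept their sign under library totals. The genes equal in both organs numbered 9, and 5 with DESeq2 size factors, 0 with the interval inside 0.3 of 0 and 564 with it inside 1. The cause of these changes was not tested. Family switches numbered 37, and 38 when joint records were left out, 51 with cerebellum as the only brain tissue and 48 with hippocampus. Depth limits genes with few tags, and the pools leave the spread between animals unmeasured. Over the alternatives for 194 named genes 3614 values kept direction and call, 150 lost the call, 83 gained one and 26 turned sign, given here on the log2 scale. Library totals put Actb at -1.19, C1qa at -0.030, Cct6a at -1.23, Cox6a1 at -0.33, Cox7a2 at -0.060, Elavl1 at -0.53, Elp5 at -1.26, Eno1 at -0.92, Gapdh at -0.67, Got1 at -0.79, Gphn at -0.19, Ndrg2 at -0.080, Ndufa5 at -1.20, Nrbp1 at -1.25, Pabpc1 at -0.053, Rsrc1 at -1.25, Tuba4a at -0.83, U2af1 at -0.54, Uqcc at -1.24 and Vps28 at -1.26. With hippocampus as the only brain tissue the sign turned for Car8 at 3.16, Pcp2 at 1.26, Pdk2 at 0.63 and Reln at 1.01, and with cerebellum as the only one for Homer2 at 1.23 and Nrgn at 1.47.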

Other observations

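Genes of some smaller cell populations of each organ also differed. All 7 tested Kupffer cell markers were higher in liver, with a median log2 difference of 7.85. Clec4f, a lectin of Kupffer cells, had 1, 2, 0, 9, 339 and 531 tags, and Cd5l, a secreted macrophage protein, had 0, 3, 0, 7, 143 and 290. All 7 tested markers of the sinusoidal endothelium were higher too, with a median of 6.86, among them the scavenger receptor Stab1 with 10.3, 8.19, 11.4, 14.1, 101 and 102 CPM. Of 8 markers of brain endothelium 6 were lower in liver and none higher, with a median of -2.29. Other lists were less one-sided. Of 7 tested stellate cell markers 5 were higher in liver, with a median of 2.94 and Reln lowest. Only 3 cholangiocyte markers were tested, and 2 of them were higher. Of 8 tested choroid plexus markers 2 were higher and 2 lower. Over all genes tested 26.7% were higher and 25.7% lower.

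Markers of microglia, the macrophages of brain, divided. Of 9 tested 3 were higher in liver (33.3%, against 26.7% of all genes tested) and 4 lower (44.4%, against 25.7%). The share that was higher was thus near that of all genes. Sall1 had the largest log2 difference of the list. The complement genes C1qa and C1qb were higher under TMM scaling, with log2 differences of 1.22 and 1.56 that were -0.03 and 0.31 and not called under library totals. Cx3cr1, the fractalkine receptor, had 20.3, 22.1, 46.0, 61.2, 4.20 and 9.50 CPM and was lower in liver, at -2.45. Csf1r, the receptor of macrophage growth factors, had 33.8, 48.2, 91.0, 102, 146 and 122 CPM and was not called.

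The metallothioneins Mt1 and Mt2, which bind zinc, were lower in the knockout than in the wild-type liver library. Mt1 had 539 CPM in knockout and 1989 CPM in wild-type liver, and Mt2 had 237 and 999 CPM. A single library per genotype gives no replicate check of this difference. Mt3, the brain form, had 1096, 1071, 1987, 1599, 54.6 and 28.5 CPM.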
